A study of Homo sapiens with 38 samples.

Results

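In KG1a, RNA that rPAL recovered from large extracellular vesicles held less mitochondrial tRNA, miRNA and small nucleolar RNA than RNA recovered in the same way from the cells. The comparison uses 7 of the 38 libraries of the series, chosen by their titles: 3 libraries of rPAL RNA from KG1a large vesicles and 4 of rPAL RNA from KG1a cells. KG1a is a human acute myeloid leukaemia line of primitive, CD34-bearing cells and was labelled wild type. The vesicles came from KG1a cells kept for 2 days in medium without serum, whereas the cells themselves were grown with 10% serum. Serum and source therefore cannot be told apart in any result here. Both groups were enriched by rPAL. The matching total RNA libraries are not used here, so a lower value may stand for less of an RNA in vesicles or for less of it carrying the glycan. Shares are also relative to library totals, so more of another RNA in a library would lower them too. Small RNA of the size range kept on a gel was sequenced. The labels do not say whether libraries of a group came from separate cultures, so p-values measure the spread between these libraries only.

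GlycoRNAs are small RNAs that carry N-glycans ending in sialic acid and have been found on the outer surface of cells. In rPAL, sialic acid is oxidised with periodate to an aldehyde, and a biotin reagent is then ligated to it, so that the RNA can be pulled down on streptavidin. Large vesicles bud from the plasma membrane and can enclose parts of the cytoplasm, and with it tRNA, ribosomal RNA and fragments of mRNA. Mitochondrial tRNAs are transcribed and used inside mitochondria, and most snoRNAs act in the nucleolus, so both kinds mark compartments other than the cytosol.

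Sequences are given for the named small RNAs on which the results turn, written 5′ to 3′ as DNA for GENCODE release 29 transcripts and as RNA for the RefSeq miRNA. MT-TV, MT-TI and MT-TC, the mitochondrial tRNAs for valine, isoleucine and cysteine, were called lower in vesicles, and MT-TY (tyrosine) and MT-TS1 (serine) are shown because they did not follow them. Capitals mark the anticodon of a tRNA.
MT-TV, chrM:1602-1670, plus strand: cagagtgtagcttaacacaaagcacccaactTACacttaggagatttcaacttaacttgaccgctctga
MT-TI, chrM:4263-4331, plus strand: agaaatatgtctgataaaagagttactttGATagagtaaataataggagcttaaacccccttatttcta
MT-TC, chrM:5761-5826, minus strand: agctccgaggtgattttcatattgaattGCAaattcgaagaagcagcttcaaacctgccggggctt
MT-TY, chrM:5826-5891, minus strand: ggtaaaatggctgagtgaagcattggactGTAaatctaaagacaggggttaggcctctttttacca
MT-TS1, chrM:7446-7514, minus strand: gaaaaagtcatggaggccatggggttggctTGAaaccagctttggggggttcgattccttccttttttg
SNORD37 is a C/D box snoRNA, a guide for the 2′-O-methylation of ribosomal RNA, encoded in an intron of the elongation factor gene EEF2. Capitals mark its C box (TGATGA, searched in the first 25 bases) and D box (CTGA, searched in the last 20), both on the strand of the transcript. Both boxes were found in 187 of 275 transcripts whose name starts with SNORD (68.0%) and in 0 of 142 whose name starts with SNORA.
SNORD37, chr19:3982507-3982572, minus strand: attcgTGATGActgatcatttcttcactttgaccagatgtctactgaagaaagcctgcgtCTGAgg
The mature miRNA of MIR7977 has its seed, bases 2 to 8, in capitals, and no other of the 2545 mature miRNAs in the RefSeq table (GRCh38.p14) has that seed.
hsa-miR-7977, chr3:176515103-176515120, plus strand: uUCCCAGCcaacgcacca

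The 3 vesicle libraries held 10180261, 9284057 and 2869426 counts, against 10225549 to 15532758 in the 4 cell libraries. Vesicle library 3 stood apart from the other vesicle libraries as well as from the cells. It had a count on 7404 features, against 16467 and 21215 in the other vesicle libraries and 18640 to 22711 in the cell libraries. Over 2935 features its Pearson correlation in log2(CPM + 1) with vesicle libraries 1 and 2 was 0.634 with each, while these correlated at 0.867 and the cell libraries at 0.82 to 0.923 with each other. CPM are counts scaled to the same total in every library, and a count of 0 in vesicle library 3 allows up to 1.05 CPM, against 0.193 to 0.323 CPM in the other 6 libraries, for counting error alone. RNAcentral entries, which carry no gene name in the files, held 81.0% of the counts of the 7 libraries and are described by class. The 6 markers of primitive myeloid cells summed to 4.52, 9.91 and 50.9 CPM in vesicles, and the lowest cell library had 9.88 CPM, so the groups overlapped. Of the 3 tested, 2 had a negative fitted log2 fold change. CD34 alone had a positive one (1.02, or −2.11 without vesicle library 3). CD34 had 0.0982, 1.83 and 42.9 CPM in vesicles, against 4.87, 11.2, 1.96 and 3.03 CPM in cells. Markers of neutrophil granules summed to at most 0.295 CPM in a vesicle library and 1.37 CPM in a cell library, and erythroid markers to at most 0.0982 and 0.826 CPM. Platelet markers summed to at most 10.5 and 9.14 CPM. Liver and plasma markers summed to at most 16416 and 3086 CPM, nearly all of it HP (given below). Of the 10 listed, ALB, APOA1, FGB and FGG had no count in any of the 7 libraries. The sum therefore shows the level of HP and not that of the list.

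By class, mitochondrial tRNA, which in cells was mostly MT-TV (given below), made the sharpest contrast. It held 0.0174%, 0.0191% and 0.00192% of counts in vesicle libraries 1 to 3, against 0.365%, 0.875%, 0.395% and 0.397% in the cell libraries. Every vesicle library lay far below every cell library, and the mean was 39.6-fold lower in vesicles, or 27.8-fold without vesicle library 3. snoRNA held 0.123%, 0.158% and 0.273% in vesicles, against 0.823% to 1.69% in cells, a mean 6.46-fold lower (8.49-fold without library 3). miRNA, a class of RNAcentral entries and annotated miRNA genes, held 0.201%, 0.959% and 0.239% in vesicles, against 1.92% to 9.35% in cells, a mean 11.3-fold lower (9.11-fold without library 3). RNase P RNA, the catalytic part of the enzyme that trims the 5′ ends of tRNA precursors, had 0.156%, 0.0448% and 0.107% in vesicles against 0.228% to 0.37% in cells. snRNA, the RNA of the spliceosome, and the class that holds Y RNA genes (misc_RNA) were also lower in every vesicle library. The misc_RNA share was lower although 6 of the 7 features of that class tested had a positive fitted change. In the other direction, 7SL RNA, the scaffold of the signal recognition particle, had 0.197%, 0.27% and 0.157% in vesicles against 0.0537% to 0.129% in cells, a mean 2.19-fold higher. For these 7 of the 17 classes tested the groups did not overlap, and the exact permutation test of the difference in means gave a two-sided p = 0.0571, the smallest that 3 against 4 libraries allow, and 0.139 after Benjamini-Hochberg adjustment over the 17. These tests cannot reach 0.05.

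The abundant classes did not separate the groups. rRNA held 15.0%, 31.6% and 55.4% of counts in vesicles, against 11.4% to 22.3% in cells. tRNA held 78.4%, 53.5% and 16.9% in vesicles, against 72.9%, 38.7%, 39.6% and 77.0% in cells. Vesicle library 3 was the highest of the 7 in rRNA and the lowest in tRNA, so the mean tRNA share was 7.45 points lower in vesicles with it and 8.9 points higher without it. Cell libraries 2 and 3 were alike in having less tRNA and more precursor miRNA (16.0% and 19.0%) than cell libraries 1 and 4 (4.83% and 0.877%). Precursor miRNA in vesicles, at 0.413%, 2.86% and 0.877%, reached into that range.

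**Figure D1:**
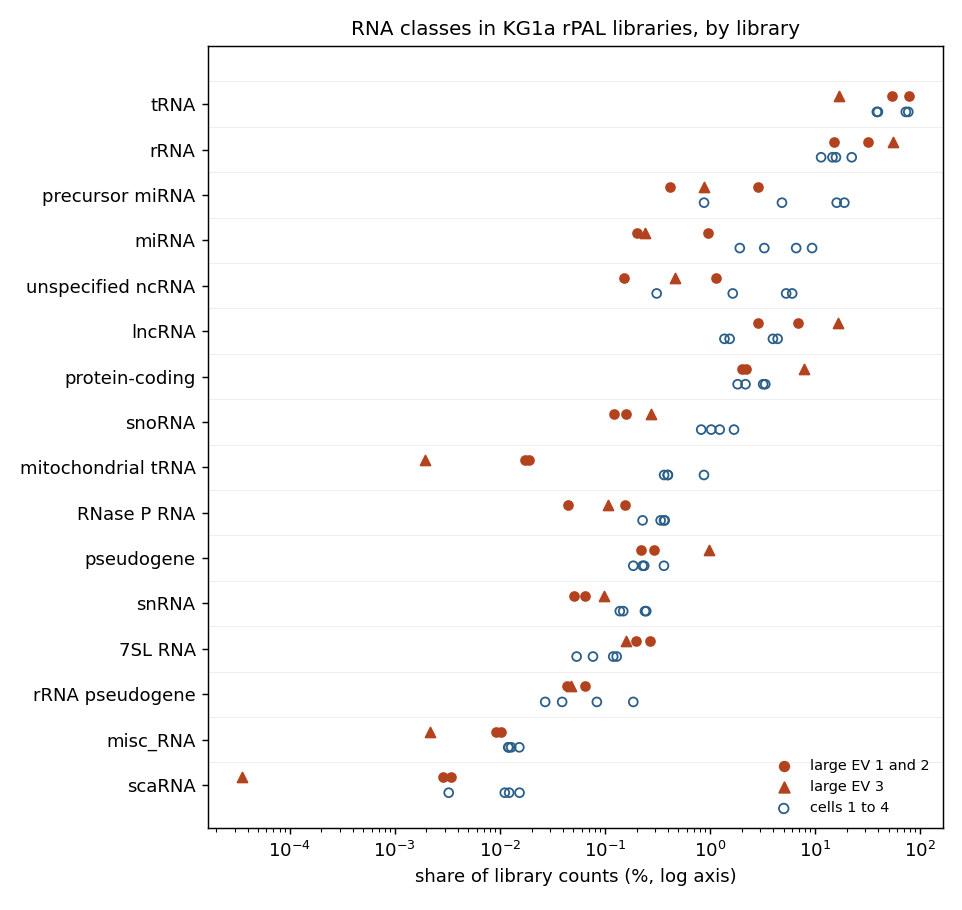
Share of each library's counts held by each RNA class (percent, log axis), one point per library, with the vesicle libraries above the cell libraries in each row and vesicle library 3 as a triangle. Mitochondrial tRNA, snoRNA and miRNA lie left of all cell libraries in every vesicle library, while tRNA and rRNA overlap.

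Feature by feature, edgeR's quasi-likelihood test called 38 of 6506 features tested (0.584%) at a Benjamini-Hochberg adjusted p under 0.05, 18 higher in vesicles (0.277%) and 20 lower (0.307%). The median log2 fold change of all features tested was −0.25. Of the 6506, 898 had an unadjusted p under 0.05 in edgeR, and DESeq2 called 175 higher and 307 lower. Without vesicle library 3 edgeR called 17 of 9670 features (0.176%), 9 higher (0.0931%) and 8 lower (0.0827%), of which 13 are among the 38. Leaving out another library in its place gave 9 calls (vesicle library 1), 56 (vesicle library 2) and 2, 9, 8 and 12 (cell libraries 1 to 4). All 38 kept their sign without vesicle library 3, which was likely beforehand, since they were called on the same libraries. In CPM, the groups did not overlap for 17 of the 18 and 18 of the 20, where 6.12% of all features tested were higher in every vesicle library than in every cell library and 9.48% lower. Called features described in full are therefore given with and without that library. CPM values compare 1 feature between libraries and are not set against length. In RNA from many vesicles, less of an RNA in each vesicle and fewer vesicles that hold it cannot be told apart.

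All 22 mitochondrial tRNAs had a count. Of the 19 that passed the filter on low counts, 3 were called, all lower, the fitted change was negative for 16, and the median log2 fold change was −2.73 (−2.16 without library 3), beside −0.25 for all features. For 12 of the 22, every vesicle library lay below every cell library, and for 0 every one lay above, where 2.75% of all 43102 features with a count lay below and 1.83% above. All 12 were among the 19 tested, and of all features tested 9.48% lay below and 6.12% above. Summed over the 22, vesicle libraries held 174, 191 and 19.2 CPM, against 3651, 8747, 3949 and 3973 CPM in cells.

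MT-TV made up most of that sum in cells. It had 71.8, 74.6 and 13.6 CPM in vesicles, against 3072, 7368, 3345 and 3344 CPM in cells. Vesicle library 3 was the lowest and cell library 2 the highest, with a wide gap between the groups. Its log2 fold change was −6.09 ± 1.26 (SE; edgeR adjusted p = 0.0183) and −5.59 ± 1.06 without library 3 (0.0147). MT-TI had 6.58, 2.91 and 0 CPM in vesicles, against 155, 297, 94.0 and 94.6 CPM in cells. MT-TC had 5.80, 7.54 and 0 CPM in vesicles, against 123, 311, 146 and 263 CPM in cells. Both were lower in every vesicle library, and both lost the call without library 3: for MT-TI the log2 fold change was −5.41 ± 1.37 (edgeR adjusted p = 0.0497) with it and −4.75 ± 1.09 (0.0593) without it. For MT-TC it was −5.28 ± 1.35 (edgeR adjusted p = 0.0497) with it and −4.81 ± 1.08 (0.0523) without it.

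Not all members had lower values in vesicles. MT-TY had 15.8, 6.79 and 0 CPM in vesicles, against 0.532, 4.31, 3.13 and 1.22 CPM in cells, so vesicle libraries 1 and 2 lay above the cells and library 3 had no count. MT-TS1 had 12.9, 17.2 and 0 CPM in vesicles, against 3.19, 6.98, 8.70 and 6.24 CPM in cells, again with vesicle libraries 1 and 2 above the cells and no count in library 3. Neither was called (edgeR adjusted p = 0.647 and 0.838). MT-TC and MT-TY are neighbours on the same strand and meet at position 5826 of the mitochondrial genome. MT-TL1, the leucine tRNA, had 0.0982, 0.108 and 0 CPM in vesicles, against 12.2, 7.25, 17.1 and 2.96 CPM in cells, but was not called (edgeR adjusted p = 0.147). In length and base composition the 3 called tRNAs did not form a group apart, with 66 to 69 bases and 29% to 45.5% G and C, where the 22 have 59 to 75 bases and 23.1% to 49.3%.

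The mRNAs of the same genome did not show this gap when all 3 vesicle libraries were counted. All 13 were tested and 0 were called by edgeR, with 1 at an unadjusted p under 0.05 and 1 called lower by DESeq2. Of the 13, 12 had a negative fitted change, with a median of −0.80 (−1.24 without library 3). Their sum was 568, 1127 and 3258 CPM in vesicles, against 2429, 4265, 2676 and 1429 CPM in cells. The groups overlapped through vesicle library 3 alone, and vesicle libraries 1 and 2 lay below every cell library. For 4 of the 13 every vesicle library lay below every cell library, and for 0 every one lay above. Of all features tested, 9.48% lay below and 6.12% above in this way. MT-ND3, a subunit of complex I, was among the 4, at 9.43, 15.8 and 4.88 CPM in vesicles and 103, 161, 99.9 and 107 CPM in cells. Its log2 fold change of −3.35 ± 1.17 was not called (edgeR adjusted p = 0.187).

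**Figure D2:**
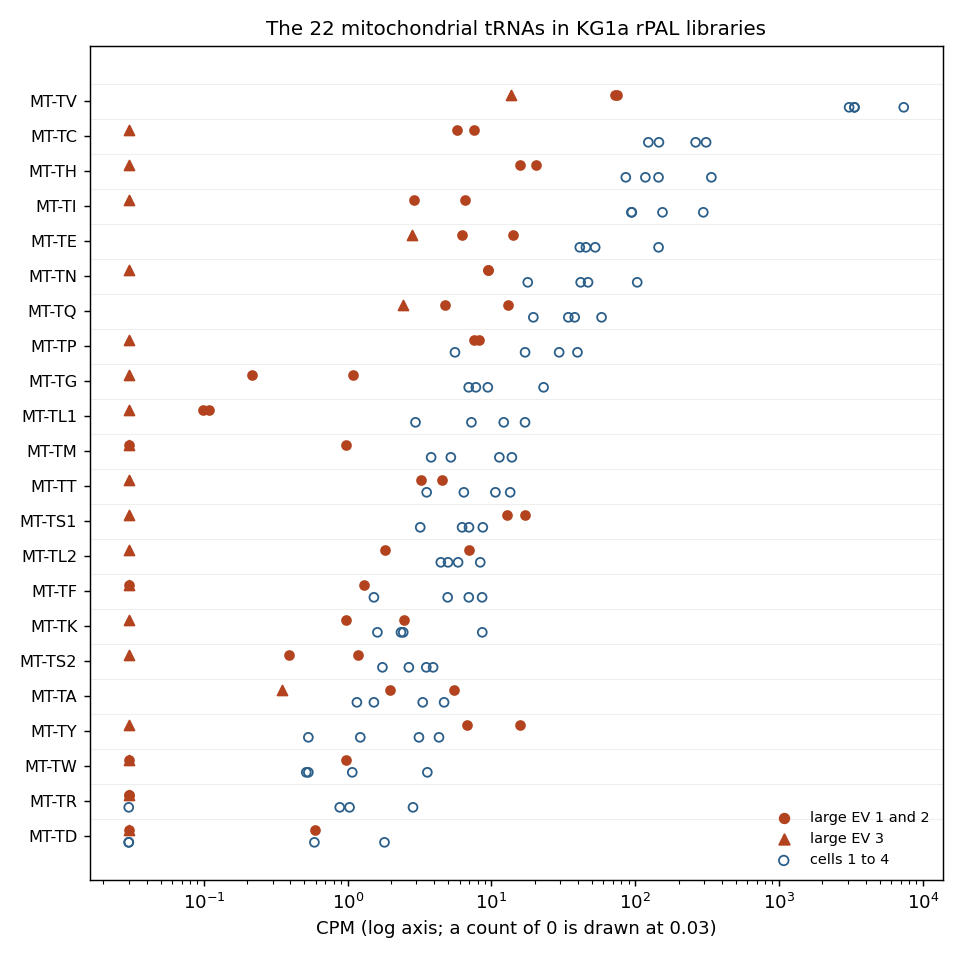
CPM of the 22 mitochondrial tRNAs in each library (log axis, a count of 0 drawn at 0.03), ordered by their mean in cells, vesicle libraries above cell libraries in each row. MT-TV is the most abundant, at 13.6 to 74.6 CPM in vesicles and 3072 to 7368 CPM in cells, and in MT-TY and MT-TS1 vesicle libraries 1 and 2 lie right of all cell libraries.

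snoRNAs and their host genes were the second group. C/D box snoRNAs guide ribose methylation and H/ACA box snoRNAs guide pseudouridylation of other RNAs. Of the 256 features of class snoRNA tested, 8 were called, all lower, with a median log2 fold change of −1.92 (−1.60 without library 3). Most of these are unnamed RNAcentral entries. The most abundant of them called had 69.8, 127 and 16.4 CPM in vesicles, against 2886, 3594, 1725 and 1358 CPM in cells. Its groups lay far apart, with a log2 fold change of −4.79 ± 1.20 (edgeR adjusted p = 0.0485), or −4.31 ± 0.99 without library 3 (0.0633). Named C/D genes summed to 20.8, 8.51 and 38.7 CPM in vesicles, against 125, 159, 154 and 152 CPM in cells. Named H/ACA genes summed to 104, 86.2 and 0 CPM in vesicles, against 150.1, 458, 339 and 338 CPM in cells. Both sums were lower in every vesicle library. Of the C/D genes 21 had a count, 10 were tested and 1 was called lower by edgeR, with 6 at an unadjusted p under 0.05 and 6 called lower by DESeq2. Of the H/ACA genes 51 had a count, 22 were tested and 0 were called by edgeR, with 4 at an unadjusted p under 0.05 and 2 called lower by DESeq2. Of all 6506 features tested, 898 had an unadjusted p under 0.05 and 307 were called lower by DESeq2.

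SNORD37 was the called C/D gene. It had 0, 0.215 and 0 CPM in vesicles, against 28.8, 18.5, 15.5 and 17.7 CPM in cells. Only 2 counts were found over the 3 vesicle libraries, and the ratio of pooled CPM was 228-fold lower in vesicles, with a 95% Poisson interval of 63.0 to 1879 for counting error alone. The fitted log2 fold change was −7.53 ± 1.87 with library 3 (edgeR adjusted p = 0.0472) and −7.27 ± 1.61 without it (0.0515). Its host gene EEF2 had the opposite order, with 221, 489 and 423 CPM in vesicles and 34.8, 82.1, 57.9 and 75.0 CPM in cells. Every vesicle library lay above the cells, but EEF2, at a log2 fold change of 2.64 ± 0.99, was not called (edgeR adjusted p = 0.208).

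GAS5, a non-coding host gene in which RefSeq places 11 small RNA genes (SNORD44, SNORD47, SNORD74 to SNORD81 and SNORA103), had 9.23, 5.49 and 2.44 CPM in vesicles, against 201, 206, 154 and 156 CPM in cells. The cell libraries were close to each other and the vesicle libraries all far below. GAS5 fell by 4.83 on the log2 scale, with an SE of 1.24 (edgeR adjusted p = 0.0497), and the value was −4.39 ± 1.03 without library 3 (0.0697). Reads of GAS5 and of the snoRNAs inside it cannot be told apart where the counting let them overlap. Of the 27 snoRNA host genes listed, 26 had a count, 23 were tested and edgeR called GAS5 alone, with a median of −1.999. At an unadjusted p under 0.05 there were 12 of the 23, beside 898 of all 6506 features tested. DESeq2 called 6 lower and 1 higher, beside 307 and 175 of the 6506. SNHG1, host of SNORD22 and SNORD25 to SNORD31, had 6.09, 1.72 and 2.09 CPM in vesicles, against 84.1, 83.9, 54.1 and 47.6 CPM in cells. SNHG5 had 12.8, 28.1 and 0 CPM in vesicles, against 145, 413, 494 and 48.7 CPM in cells. Both lay below all cell libraries, without a call (edgeR adjusted p = 0.134 and 0.167). SNHG16 went the other way, with 10.2, 16.2 and 54.7 CPM in vesicles and 0.532, 5.87, 1.47 and 0.0644 CPM in cells, and was not called (edgeR adjusted p = 0.21). Its lowest vesicle library was above its highest cell library.

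Of 159 miRNA features tested, 3 were called, all lower, and 148 had a negative fitted change, with a median of −2.65 (−2.36 without library 3). MIR7977 (chr3:176515103-176515151, plus strand) had 81.4, 147 and 23 CPM in vesicles, against 2966, 4772, 3804 and 9798 CPM in cells. Every vesicle library lay far below the lowest cell library, with library 3 the lowest. Its log2 fold change was −5.81 ± 1.25 (edgeR adjusted p = 0.0246), and −5.52 ± 1.14 without library 3 (0.0302). MIR7977 made up nearly all counts of named miRNA genes in cells and a smaller part in vesicles. Their sum was 172, 267 and 85.4 CPM in vesicles, against 3095, 5055, 4239 and 9845 CPM in cells. The most abundant unnamed miRNA entry called had 419, 326 and 112 CPM in vesicles, against 6156, 6884, 8063 and 5938 CPM in cells. The cell libraries were within a narrow range and every vesicle library was far below it, with a log2 fold change of −4.40 ± 1.13 (edgeR adjusted p = 0.0497), or −3.96 ± 0.96 without library 3 (0.0773). Named genes of the let-7 family and of myeloid miRNAs could not be compared, since 0 of their members passed the filter; RNAcentral entries may hold their reads.

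Protein-coding and other long non-coding loci were also called lower. SHF, which encodes an SH2-domain adaptor protein, had 0.196, 0.108 and 0 CPM in vesicles, against 119, 139.5, 490.3 and 11.6 CPM in cells. With 3 counts over the vesicle libraries, the ratio of pooled CPM was 1238-fold lower in vesicles, with a 95% Poisson interval of 424 to 6004.5 for counting error alone. SHF was called with all libraries (edgeR adjusted p = 0.000824), without vesicle library 3 (0.00444) and in each of the 7 fits that left out 1 library. RefSeq places the histidine tRNA genes TRH-GTG1-7 and TRH-GTG1-8 inside SHF. AC051619.8 (chr15:45200325-45200632, minus strand), a lncRNA gene within SHF that holds TRH-GTG1-8, had 0.688, 0.969 and 0 CPM in vesicles, against 16.1, 147, 74.4 and 53.5 CPM in cells. Every vesicle library of both loci lay below every cell library. AC051619.8 fell by 6.62 on the log2 scale (SE 1.52, edgeR adjusted p = 0.0343), and the value was −6.11 ± 1.28 without library 3 (0.0342).

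ROBO2, the gene of a receptor for Slit ligands in axon guidance, had 1.08, 1.40 and 0.697 CPM in vesicles, against 194, 125, 146 and 26.7 CPM in cells. Its log2 fold change was −6.65 ± 1.41 (edgeR adjusted p = 0.0225), and −6.28 ± 1.23 without library 3 (0.0199). The locus contains RNU6-386P, a U6 snRNA pseudogene, on the same strand. ZMYM2, which encodes a zinc finger protein of transcriptional corepressor complexes, had 0.491, 5.49 and 0 CPM in vesicles, against 132, 488, 160.3 and 18.2 CPM in cells. Both genes were lowest in vesicles without overlap, and ZMYM2, at −6.13 ± 1.48 (edgeR adjusted p = 0.0426), was not called without library 3 (−5.57 ± 1.31, 0.0723).

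**Figure D3:**
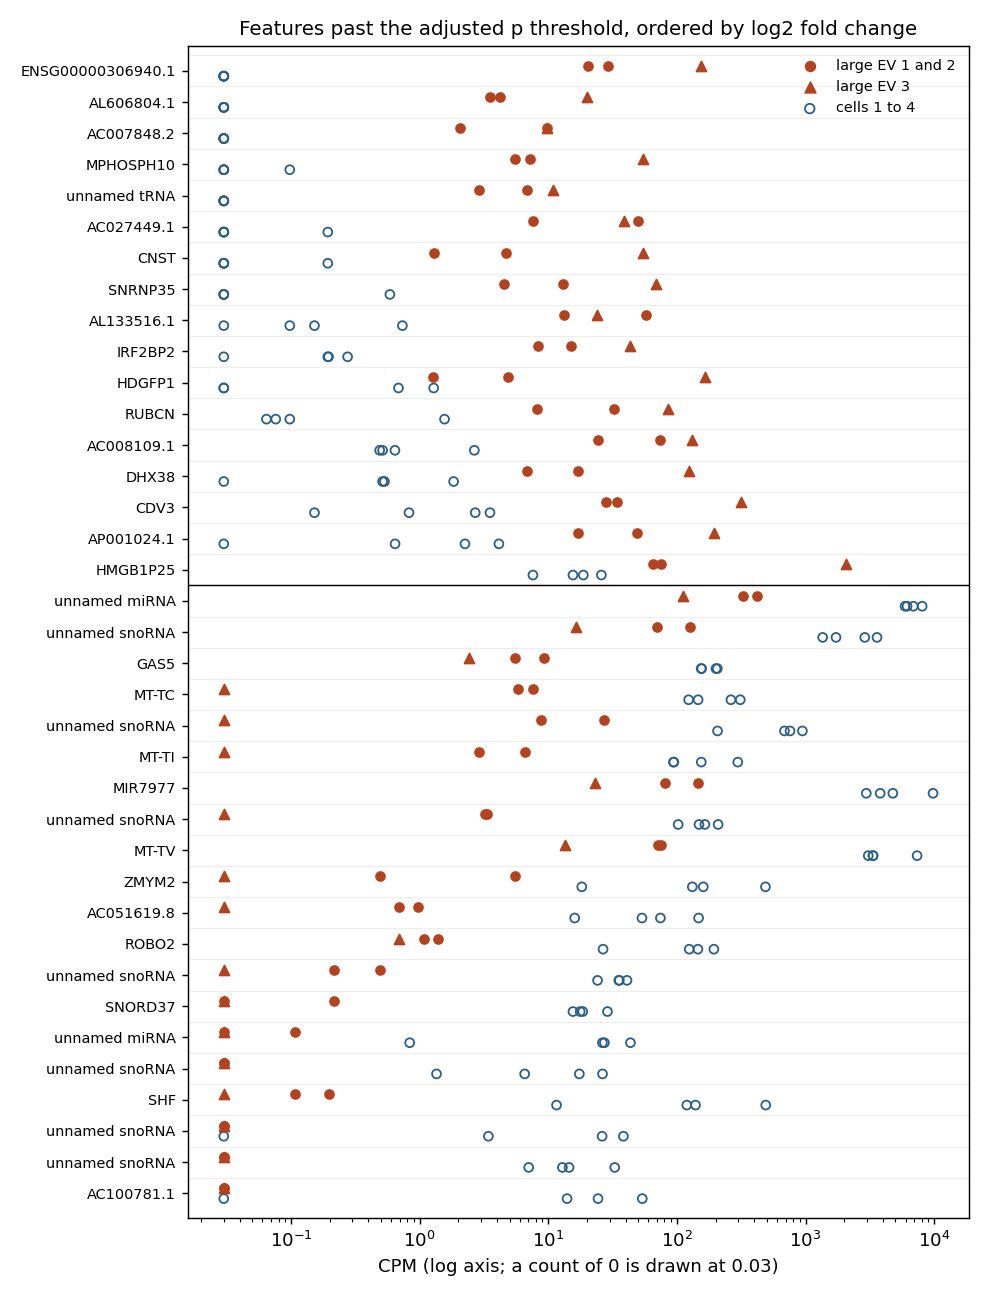
CPM of 37 of the 38 called features in each library (log axis, a count of 0 drawn at 0.03), ordered by log2 fold change, with 17 higher in vesicles above the line and 20 lower below it. Vesicle library 3 (triangle) is the highest of the 7 libraries in 15 of the 17 higher features drawn, and the groups overlap in 1 of the 17 and in 2 of the 20.

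Vesicle library 3 was the highest of the 7 libraries in 16 of the 18 features called higher, and the lowest vesicle library in 14 of the 20 called lower. Without it 5 of the 18 and 8 of the 20 were called. Of the 18, 7 had at most 3 counts over the 4 cell libraries together. The clearest was the lncRNA gene ENSG00000306940.1, which has no symbol in GENCODE 29, with 29.2, 20.2 and 154 CPM in vesicles and 0 counts in each of the 4 cell libraries. It was at least 689.7-fold higher in vesicles (at least 414-fold without library 3), taking 3 counts over the cell group as the floor, and was called in each of the 7 fits that left out 1 library. Its edgeR adjusted p was 0.000195 with library 3 and 0.000999 without it. An unnamed tRNA entry was also absent from cell counts, at 6.88, 2.91 and 10.8 CPM in vesicles. It was at least 95.1-fold higher by the same floor, and at least 82.7-fold without library 3. Its edgeR adjusted p was 0.0472 with library 3 and 0.108 without it.

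AC008109.1, a lncRNA gene on chromosome 18, had 73.9, 24.5 and 131 CPM in vesicles, against 2.66, 0.643, 0.489 and 0.515 CPM in cells. Every vesicle library lay far above every cell library. It was called with library 3 (5.89 ± 1.31, edgeR adjusted p = 0.0274) and without it (5.71 ± 1.06, 0.0147). CDV3 had 28, 33.9 and 313 CPM in vesicles, against 0.152, 0.826, 3.52 and 2.70 CPM in cells. Its groups did not overlap, but the call at 5.71 ± 1.30 (edgeR adjusted p = 0.0329) was lost without library 3 (4.20 ± 1.11, 0.134).

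Pseudogenes were among the higher features too. HMGB1P25, a copy of the mRNA of the chromatin protein HMGB1, had 74.6, 65.4 and 2049.5 CPM in vesicles, against 25.9, 18.7, 15.5 and 7.6 CPM in cells. AP001024.1 had 17.1, 49.2 and 194 CPM in vesicles, against 0, 4.13, 2.25 and 0.644 CPM in cells. In both, library 3 was the highest and the groups did not overlap. Without it the log2 fold change of HMGB1P25 was 2.34 ± 0.85 in place of 4.94 ± 1.15 (edgeR adjusted p = 0.334 and 0.0343), and that of AP001024.1 was 4.68 ± 1.18 in place of 5.46 ± 1.35 (0.0959 and 0.0472). Reads of a pseudogene and of its parent gene may be shared, and how reads with several hits were counted is not given in the sources used here. Chosen after their values were seen, RUBCN (a regulator of autophagy, with MIR922 inside on the same strand) and the lncRNA genes AC027449.1 and AL133516.1 were the other features called higher both with and without library 3. RUBCN had 32.6, 8.19 and 85.4 CPM in vesicles, against at most 1.56 CPM in a cell library.

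Among named Y RNA and major spliceosomal snRNA genes, edgeR called 0 of 3 and 0 of 7 tested. At an unadjusted p under 0.05 there were 0 and 2, and DESeq2 called 0 and 1, the snRNA gene being lower. RNY1, a Y RNA that binds the Ro60 protein and has been reported as a glycoRNA, had 28.9, 43 and 0 CPM in vesicles, against 96.4, 103, 92.3 and 80.8 CPM in cells. The groups did not overlap, and the log2 fold change of −1.66 ± 1.19 was not called (edgeR adjusted p = 0.591). RNY3 and RNY4 had positive fitted changes of 0.57 ± 1.53 and 1.04 ± 1.84 (1.29 and 1.51 without library 3). Their groups overlapped and neither was called, so the Y RNA genes did not share a direction. RNU4-2, a U4 snRNA gene, had 17.7, 15.7 and 0 CPM in vesicles, against 42.4, 81.3, 57.0 and 41.1 CPM in cells (edgeR adjusted p = 0.513). Of rRNA, 2 unnamed entries were the most abundant, and the higher of them had 28702, 64064 and 254443 CPM in vesicles, against 3369, 14331, 5445 and 8381 CPM in cells. Both were above all cell libraries in every vesicle library without a call (edgeR adjusted p = 0.0755 and 0.0539), and both had a p of 0.164 without library 3. Most rRNA features went the other way. Of 46 tested, 39 had a negative fitted change and 7 a positive one, with a median of −1.60 (−1.27 without library 3).

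mRNA groups mostly overlapped as well. The 16 enzymes of sialylation and N-glycan synthesis summed to 16.1, 30.6 and 79.8 CPM in vesicles, against 35.4, 39.7, 45.9 and 30 CPM in cells, and the mRNAs of glycosylated surface proteins to 39.2, 41.4 and 114 CPM in vesicles, against 101, 73.3, 83.4 and 75.0 CPM in cells. In each list 10 members were tested and 0 were called by edgeR, with 1 at an unadjusted p under 0.05 and 0 called by DESeq2. Library 3 was the highest of the 7 in both sums. Histone mRNAs summed to 449.6, 1298 and 2125 CPM in vesicles, against 261, 1321, 557 and 985 CPM in cells, with 48 tested and 0 called by edgeR, 4 at an unadjusted p under 0.05 and 1 called higher by DESeq2. HIST1H4C, a histone H4 gene, lay above all cell libraries, at 65.9, 155 and 97.2 CPM in vesicles and 9.43, 40.8, 31.8 and 12.3 CPM in cells, without a call (edgeR adjusted p = 0.298). Over all features, 898 had an unadjusted p under 0.05 in this fit, and DESeq2 called 482 of the same 6506, where 869 had no adjusted p.

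HP, the mRNA of the plasma glycoprotein haptoglobin, shows how far a single library can carry a value. It had 309, 156 and 16416 CPM in vesicles, against 499.8, 1453, 3086 and 611 CPM in cells. Vesicle libraries 1 and 2 were the lowest of the 7 and library 3 the highest. The log2 fold change was 1.54 ± 1.05 with library 3 (edgeR adjusted p = 0.574) and −2.25 ± 0.94 without it (0.431).

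**Figure D4:**
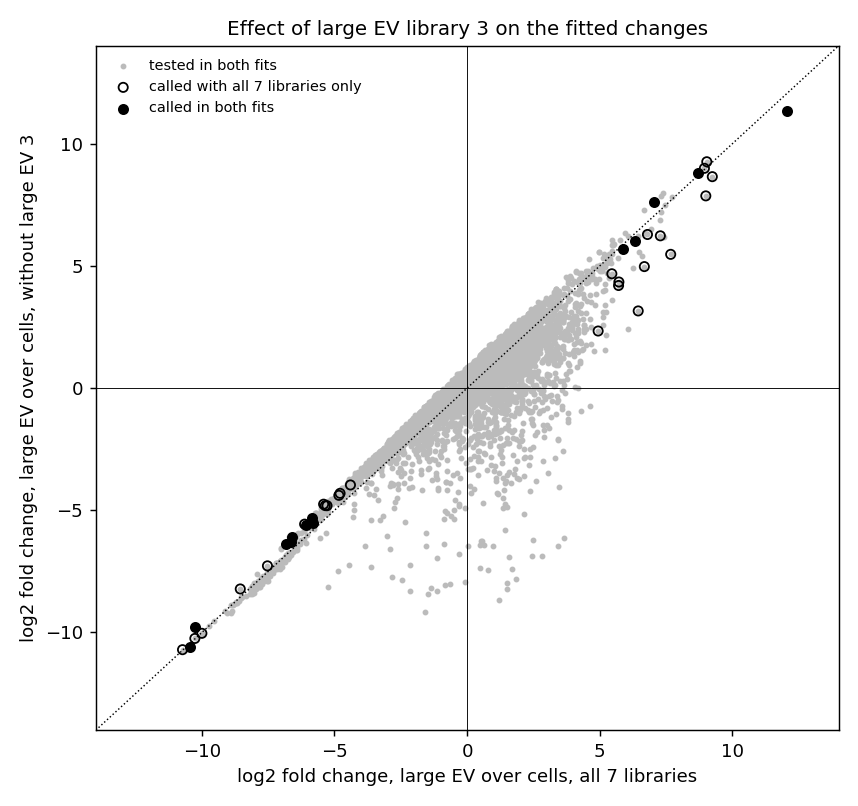
Log2 fold change of vesicles over cells with all 7 libraries (horizontal) against the value without vesicle library 3 (vertical) for the 6506 features tested in both, of which 5591 had the same sign. Filled points are the 13 features called in both fits and open points the 25 called only with all 7, and the dotted line marks equal values.

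The same comparison in HL60, another acute myeloid leukaemia line of promyelocytic type, shares no library with KG1a. It has 3 vesicle and 3 cell libraries of rPAL RNA, made under the same labels. There the test called 719 of 3605 features (19.9%), with 195 higher (5.41%) and 524 lower (14.5%) in vesicles. It called 169 to 422 when any 1 of the 6 libraries was left out. Of the 38 features called in KG1a, 30 were tested in HL60, 29 had the same sign, and 19 were called in the same direction and 0 in the opposite one. By direction, 8 of 13 called higher in KG1a and 11 of 17 called lower were called alike in HL60.

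Mitochondrial tRNA was low in HL60 vesicles too, with 0.00332%, 0.0106% and 0.00909% of counts in vesicles and 0.266%, 0.454% and 0.442% in cells. MT-TV had 22.2, 48.1 and 66.5 CPM in HL60 vesicles, against 2411, 4092 and 4015 CPM in HL60 cells (−5.73 ± 0.59, edgeR adjusted p = 0.00123). GAS5 had 0, 0.231 and 0.201 CPM in HL60 vesicles, against 288, 262 and 214 CPM in HL60 cells. MIR7977 had 23.7, 0.694 and 0.201 CPM in HL60 vesicles, against 1284, 2805 and 2235 CPM in HL60 cells (−7.50 ± 1.62, edgeR adjusted p = 0.0205). The groups did not overlap in any of these. Of the 7 classes without overlap in KG1a, mitochondrial tRNA and miRNA separated the HL60 groups in the same direction. The other 5 (snoRNA, 7SL RNA, RNase P RNA, snRNA and misc_RNA) overlapped in HL60. Among these, the HL60 means of snoRNA, RNase P RNA and 7SL RNA went in the KG1a direction. Those of snRNA and misc_RNA went the other way. snoRNA held 0.428%, 0.409% and 0.662% in HL60 vesicles, against 0.546%, 0.913% and 0.849% in HL60 cells. ENSG00000306940.1 had 155, 372 and 248 CPM in HL60 vesicles and 0 counts in each HL60 cell library. In HL60 rRNA and tRNA also separated the groups, with rRNA at 59.4%, 41.8% and 63.3% in vesicles and 5.33%, 7.72% and 6.32% in cells, and tRNA at 22.3%, 19.6% and 13.6% in vesicles and 65.0%, 74.1% and 62.0% in cells. Of the KG1a vesicle libraries, library 3 alone had rRNA and tRNA shares within the range of the HL60 vesicle libraries. Whether class shares differ between the lines was not tested.

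The difference between the lines was tested feature by feature as an interaction. Of 9675 features, 2 were called (0.0207%), F11-AS1 and ENSG00000308496.1, both less reduced in KG1a vesicles (ENSG00000308496.1, which has no symbol, was chosen after its values were seen). DESeq2 called 291. None of the 38 features was among the 2. F11-AS1, an antisense gene beside the coagulation factor gene F11, had 40.8, 16.2 and 0 CPM in KG1a vesicles and 194, 47.8, 69.3 and 108 CPM in KG1a cells, while HL60 had 0 counts in its 3 vesicle libraries and 377, 118 and 116 CPM in its cell libraries. The lncRNA gene ENSG00000308496.1 had 21.0, 59.2 and 15.3 CPM in KG1a vesicles and 237, 256, 174 and 83.7 CPM in KG1a cells, against 0 in HL60 vesicles and 404, 504 and 419 CPM in HL60 cells. Both RNAs were found in KG1a vesicles and had no count in HL60 vesicles. Without KG1a vesicle library 3 the interaction called 240 of 13128 features (1.83%), 233 of them higher (1.77%) and 7 lower (0.0533%) in KG1a.

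**Figure D5:**
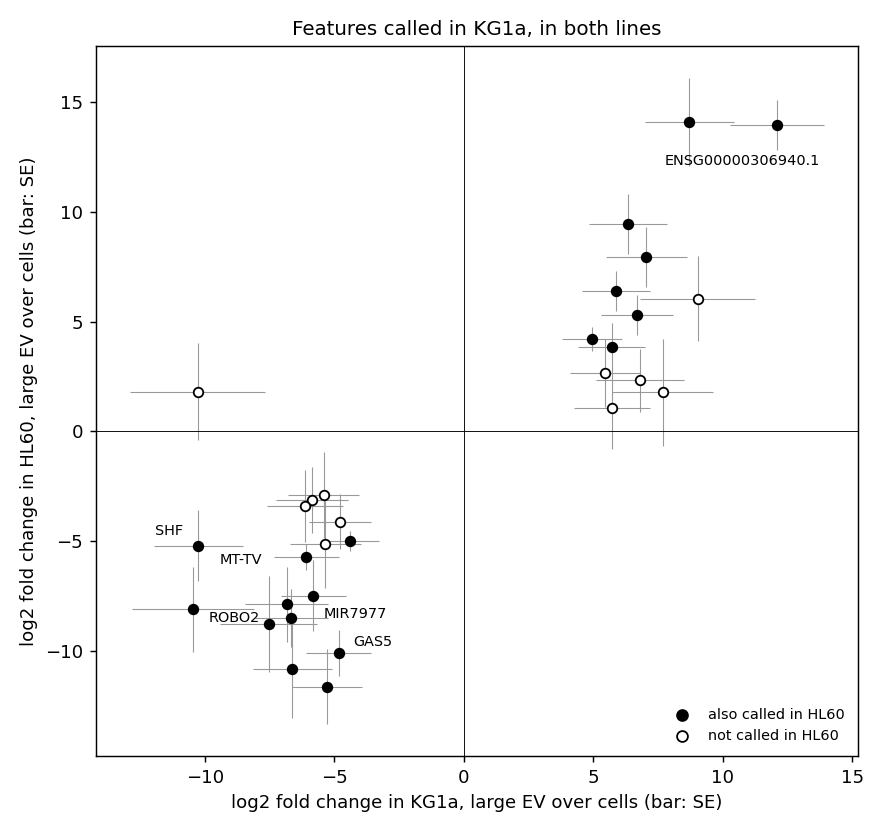
Log2 fold change of vesicles over cells in KG1a (horizontal) and HL60 (vertical), with SE bars, for the 30 features called in KG1a and tested in HL60. Of these 29 lie in the quadrants of equal sign, and the 19 filled points were called in HL60 as well.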

How the data were processed

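The authors deposited raw read counts per feature for small RNA libraries (MGIEasy kit), and the submitters' processing notes name Bowtie2 and GRCh38 (hg38). What program counted reads, how it treated multiple hits, and on which annotation, is not given in the sources used here. The members and gene lists were chosen with earlier results of these data known. Of 90127 features, 57355 took a symbol and coordinates from GENCODE 29. Counts were tested with edgeR 4.0.16 in R 4.3.3 (filterByExpr, TMM scaling, robust quasi-likelihood fit, Benjamini-Hochberg adjustment over all features, call at 0.05), with only the groups compared in a fit and all 4 groups for the line difference. TMM scaling enters the fold changes but not the CPM, which use library totals. Class shares were tested by exact permutation in Python 3.11.15. Alternatives included DESeq2 1.42.0, other scalings and filters, and leaving out libraries. The edgeR step was tested on negative binomial counts simulated from the means and dispersions of these libraries. Such counts hold no library that stands apart, so they cannot show how the step handles vesicle library 3. Totals were 2869426 to 15532758 counts per KG1a library, and intervals cover counting error only.

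The text names features with a symbol that were called, reached a mean of 50 CPM in the higher group and did not overlap between groups, up to 10 at each end of the log2 fold changes (5 and 9 met this, of which 1 is not reported here). It also names called list members, the most abundant called features without a symbol (up to 2 each way), and some of a fixed panel. The line difference allowed 4 each way. Where features shared reads, meaning log2 counts within 0.2 of each other in all libraries, the most abundant was to stand for them. Chosen once values had been seen were EEF2, SNHG1, SNHG5, SNHG16, MT-ND3, MT-TL1, MT-TY, MT-TS1, HIST1H4C and both rRNA entries. Small RNA genes inside a gene were taken from GENCODE 29 and RefSeq (GRCh38.p14).

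Same-numbered KG1a vesicle and cell libraries did not deviate together in every pair. These correlations cannot decide whether replicate numbers pair the libraries, and the main fits use no pairing.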

Additional observations from a re-analysis of the deposited data

Results flagged for a closer look

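In the 4 KG1a cell libraries, 9 of 66 values had 1 library far from the other 3 by Dixon's ratio. In 4 of the 9 the other 3 libraries had no count, which fixes the ratio at its highest value whatever the count. That leaves 5 of the 58 values with fewer than 3 libraries at 0, where chance alone picks out about 1 value in 20. Cell library 2 was the one apart in MT-TV (7368 CPM), in MT-ND3 (161 CPM), in the mitochondrial tRNA share (0.875%) and in RUBCN (1.56 CPM). The mitochondrial tRNA share is mostly MT-TV, so these values are not independent. Cell library 1 was apart in AC008109.1 (2.66 CPM). For MPHOSPH10 (0.0978 CPM), SNRNP35 (0.587 CPM), CNST (0.193 CPM) and AC027449.1 (0.193 CPM), the library apart was the only one of the 4 with a count.

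The lines differed in the edgeR interaction test for F11-AS1, with a log2 difference KG1a minus HL60 of 11.55 ± 2.30 (adjusted p = 0.0495), and for ENSG00000308496.1, with 12.53 ± 1.90 (adjusted p = 0.000512). In both, the 3 HL60 vesicle libraries had no count, so the size of the fitted difference depends on the prior count.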

How the results depend on the processing

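All 38 called features kept their direction in 590 of 590 values under the alternatives in which they were tested. They were called for large changes in these same libraries, so a kept direction was likely beforehand and is no separate evidence. The number called did not hold: against 38 it was 482 with DESeq2, 85 without TMM scaling, 4 without a filter on low counts, 17 with rRNA features left out, 0 without cell libraries 2 and 3 (490 at an unadjusted p under 0.05) and 1 without these and vesicle library 3. Leaving out 1 library gave 2 (without cell library 1) to 56 calls (without vesicle library 2), with 9 without vesicle library 1, 17 without vesicle library 3, and 9, 8 and 12 without cell libraries 2, 3 and 4. The median log2 fold change of all features was −0.38 without TMM scaling and −0.25 with it. In HL60 the count of 719 became 1208 with DESeq2, 259 without the filter and 169 to 422 with 1 library left out. The line difference of 2 features became 291 with DESeq2, 1 with at least 20 counts in 3 libraries, 7 without TMM scaling and 1 to 240 with 1 library left out. The tRNA share difference of −7.45 points became 2.17 with rRNA and 2.63 with the 10 most abundant features out of the totals, and −21.9 to 8.9 with 1 library left out. The rRNA difference of 18.0 points became −5.34 without those 10 features. The rRNA pseudogene difference of −0.0321 points became 0.0188 without cell libraries 2 and 3, and −0.0511 to 0.00188 with 1 library left out. The protein-coding difference of 1.38 points became −0.524 (without vesicle library 3) to 2.38 with 1 library left out, 4.56 with rRNA and 6.11 with the 10 most abundant features out of the totals. HP, at 1.54, became −2.25 (without vesicle library 3) to 2.10 with 1 library left out and −1.21 without cell libraries 2 and 3 and vesicle library 3. The cause of these changes was not tested. Correlations of same-numbered deviations in KG1a were 0.209, 0.215 and −0.048, which cannot decide whether replicate numbers pair the libraries. With the replicate number as a block, the fit called 27 features in KG1a (3 higher, 24 lower), of which 16 are among the 38. It called 491 in HL60 and 36 in the line difference, and gave −0.50 for HP. The low depth of vesicle library 3 limits what its zeros show.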
